A study of Mus musculus and Homo sapiens with 14 samples.

Results

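The genes described here are the mouse Magea, Mageb, Xlr and Rhox genes, families best known from testis, placenta, lymphocytes and tumours. Members were every symbol in the deposited count tables that began with Magea, Mageb, Xlr or Rhox followed by a digit. Both mouse tables held the same 88 symbols, of 50559 entries in the EL4 tumour table and 55969 in the EG7 table: 13 Magea, 18 Mageb, 15 Xlr and 42 Rhox, among them 23 whose symbol marks a pseudogene. Among EL4 libraries, 13 members reached 10 reads in total, another 10 had 1 to 9 reads and 65 had none. Among EG7 libraries, 54 members reached 10 reads, 17 had 1 to 9 and 17 had none.

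The study profiled RNA by sequencing in 14 samples, of which the 10 mouse libraries in 5 groups of 2 were used here. EL4 is a mouse T cell lymphoma, and its libraries were made from tumours of the wild-type genotype labelled P0 and P3, labels that the sources used here do not explain. EG7 is an EL4 derivative that expresses ovalbumin. It was grown in culture with azacytidine (1.5 µM), decitabine (0.2 µM) or the solvent DMSO added at 0, 24 and 48 h, and harvested at 72 h. All 3 EG7 groups carry the ovalbumin transgene, and DMSO is the solvent control. The 4 comparisons were P3 against P0, each drug against DMSO, and azacytidine against decitabine at unequal doses. The labels do not say whether the 2 libraries of a group came from separate cultures or animals, so p-values measure only the spread between these libraries, which may be technical.

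Magea and Mageb genes encode type I MAGE proteins, cancer-testis antigens that are normally restricted to germ cells, bind RING-type E3 ubiquitin ligases and can be presented to T cells when tumours express them. Rhox genes form an X-linked cluster of homeobox genes of the testis, epididymis, ovary and placenta, and Rhox5, its founding member (also called Pem), is known from tumour lines, T lymphomas included. Xlr genes (X-linked, lymphocyte-regulated) encode nuclear proteins related to the synaptonemal complex protein SYCP3. Azacytidine and decitabine are cytidine analogs that trap DNA methyltransferases once they are in DNA. Decitabine carries deoxyribose, whereas azacytidine carries ribose and also enters RNA. DNA methylation was not measured in the files used here.

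Library totals were 21621580 to 25328708 counts in the tumours and 15690747 to 21048979 in EG7. T cell markers fitted the labelled cell type: 8 of 8 had reads in EG7, with a summed level of 1540 to 2220 scaled counts-per-million (CPM), and 7 of 8 in the tumours at 1570 to 2220 CPM, with Trac at 0. The tumours also held RNA of host cell types, at levels that differed between the groups. Macrophage markers summed to 1350 and 1670 CPM at P0 and to 344 and 337 at P3, B cell markers to 191 and 367 against 28.4 and 28.6, and fibroblast markers to 2570 and 2600 against 1410 and 845. In the edgeR test described below, 9 of 10 macrophage and 7 of 7 B cell markers were called lower. Over all genes tested in the tumours, 19.9% were called lower and 18.8% higher. Of 6 fibroblast markers 2 were called lower, 1 was called higher and 3 did not pass, and none of 4 endothelial markers was called. In bulk tumours, fewer cells of a type and less RNA per cell cannot be told apart.

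Upstream sequences are shown for 8 members that stand for the patterns below. Magea8, Magea5, Rhox2a and Rhox2d had no read in DMSO and rose with both drugs. Rhox2h had a low level in DMSO and rose, Rhox5 was the most abundant member in every group, Xlr4a was called higher in 3 comparisons, and Xlr3a was called only between the tumour groups. Each run is the 250 bases upstream of the RefSeq gene start on GRCm38.p6, written 5′ to 3′ on the strand of the gene, in lower case with every CG dinucleotide in capitals.
Magea8 (chrX:154995851-154996100, minus strand): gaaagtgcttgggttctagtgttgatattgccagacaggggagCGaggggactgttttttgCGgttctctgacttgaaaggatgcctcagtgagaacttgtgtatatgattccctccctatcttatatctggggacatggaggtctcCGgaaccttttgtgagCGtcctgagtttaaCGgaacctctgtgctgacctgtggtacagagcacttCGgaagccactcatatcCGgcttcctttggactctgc
Magea5 (chrX:155061554-155061803, minus strand): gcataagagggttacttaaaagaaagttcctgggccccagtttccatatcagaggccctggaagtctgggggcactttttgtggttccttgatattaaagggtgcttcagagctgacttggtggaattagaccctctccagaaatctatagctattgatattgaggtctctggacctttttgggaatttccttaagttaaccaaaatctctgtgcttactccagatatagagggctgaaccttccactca
Rhox2a (chrX:37244742-37244991, plus strand): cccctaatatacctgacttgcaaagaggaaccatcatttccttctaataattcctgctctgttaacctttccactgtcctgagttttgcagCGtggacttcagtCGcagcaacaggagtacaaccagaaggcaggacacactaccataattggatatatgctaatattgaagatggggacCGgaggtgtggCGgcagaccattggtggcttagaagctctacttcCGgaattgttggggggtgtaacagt
Rhox2d (chrX:37493160-37493409, plus strand): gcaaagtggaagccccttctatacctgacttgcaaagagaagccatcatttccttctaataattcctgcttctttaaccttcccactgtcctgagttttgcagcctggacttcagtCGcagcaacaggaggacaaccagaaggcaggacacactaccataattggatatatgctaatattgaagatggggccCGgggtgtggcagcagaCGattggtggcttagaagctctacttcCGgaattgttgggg
Rhox2h (chrX:37673278-37673527, minus strand): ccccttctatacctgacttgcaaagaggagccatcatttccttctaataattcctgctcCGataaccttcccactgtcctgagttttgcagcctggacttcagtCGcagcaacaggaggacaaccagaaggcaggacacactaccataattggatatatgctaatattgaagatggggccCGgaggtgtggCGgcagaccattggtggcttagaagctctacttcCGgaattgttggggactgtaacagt
Rhox5 (chrX:37754358-37754607, plus strand): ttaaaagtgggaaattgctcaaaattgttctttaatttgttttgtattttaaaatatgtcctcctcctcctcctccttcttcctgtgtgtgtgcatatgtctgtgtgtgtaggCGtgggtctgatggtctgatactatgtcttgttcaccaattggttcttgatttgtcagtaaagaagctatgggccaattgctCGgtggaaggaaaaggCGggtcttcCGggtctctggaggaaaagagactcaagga
Xlr4a (chrX:73082508-73082757, minus strand): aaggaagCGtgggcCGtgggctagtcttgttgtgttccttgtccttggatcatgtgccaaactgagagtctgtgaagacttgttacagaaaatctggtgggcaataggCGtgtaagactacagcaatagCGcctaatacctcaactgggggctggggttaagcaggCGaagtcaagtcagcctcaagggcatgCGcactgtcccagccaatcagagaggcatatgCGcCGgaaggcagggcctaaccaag
Xlr3a (chrX:73097096-73097345, minus strand): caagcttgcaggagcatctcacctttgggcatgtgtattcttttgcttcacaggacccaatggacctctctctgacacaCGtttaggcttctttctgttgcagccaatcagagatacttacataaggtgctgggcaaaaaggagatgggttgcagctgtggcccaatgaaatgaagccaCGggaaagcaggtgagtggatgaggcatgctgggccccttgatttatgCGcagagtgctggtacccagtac

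RefSeq upstream sequences were matched for 52 of the 88 members. Their median was 4.5 CG dinucleotides in 250 bases, from 0 to 14, beside a median of 6 over 32841 gene starts. The Magea pair above differed most, with 7 in Magea8 and 0 in Magea5. Rhox2a and Rhox2h each had 5, and their runs were 95.6% identical when aligned end to end. Rhox2d had 4, and its run was 86.4% identical to that of Rhox2a. The Rhox2d run starts and stops earlier in the shared sequence, so this lower value includes the offset of the windows. Rhox5 had 4, Xlr3a 3 and Xlr4a 8. Of the members at 0 reads in DMSO that reached 10 reads, 22 had a sequence, with a median of 5.0 CG dinucleotides and a range of 0 to 14. Of those with 50 or more DMSO reads, 9 had one, with a median of 6.0 and a range of 3 to 8, so the ranges overlapped. RefSeq starts can lie away from the GENCODE ones: that of Rhox5 lies 50.2 kb upstream, and that of Magea5 lies 1.59 kb inside the gene.

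Searched on both strands, the E-box CACGTG was in 9.62% of the members' windows and in 6.02% of all. All 5 members with it were Rhox4 copies. The E2F-type motif TCCCGC was in 1.92% and 16.9%, and TATAAA in 5.77% and 12.4%. These matches describe letters in the windows only.

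Without drug, few members were transcribed at a measurable level. The DMSO libraries had a read for 16 and 19 of the 88 members, and the tumour libraries for 15 to 17. The azacytidine libraries had reads for 61 and 65, and the decitabine libraries for 59 and 63, although azacytidine totals were the smallest of the EG7 groups. The groups did not overlap. Over all genes the number with a read was 24596 and 26244 in DMSO and 27266 to 28767 in the treated libraries.

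**Figure D1:**
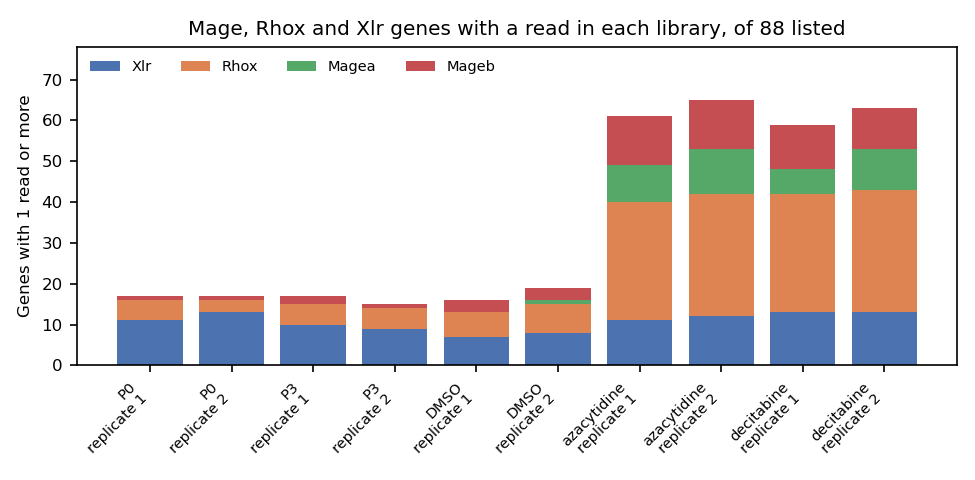
Number of Magea, Mageb, Xlr and Rhox genes with at least 1 read (y axis, of 88) in each of the 10 libraries (x axis), stacked by family. DMSO-treated EG7 and the EL4 tumours show 15 to 19 genes, the drug-treated EG7 libraries 59 to 65, and most of the added genes are Rhox.

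By family, Rhox genes with a read went from 6 and 7 in DMSO to 29 and 30 with either drug. Magea genes went from 0 and 1 to 9 and 11 with azacytidine and 6 and 10 with decitabine. Mageb genes went from 3 and 3 to 12 and 12 and to 11 and 10. Xlr genes, several of which lymphocytes express, went only from 7 and 8 to 11 and 12 and to 13 and 13. Of the 54 members with 10 reads, 35 had no DMSO read: 6 Magea, 7 Mageb, 3 Xlr and 19 Rhox. Of those, 32 had reads in all 4 treated libraries and 29 had none in any tumour library. Only 12 members had 50 or more DMSO reads, 7 Xlr and 5 Rhox.

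Among the members measured without drug, Rhox5 stood far above the rest. Per kilobase of exon it reached 505 ± 67.5 CPM per kb in DMSO (SD, n = 2) and 216 ± 22.5 at P0, where Xlr3c, next in both, had 41.9 and 54.6. The EG7 and EL4 tables were scaled separately. In DMSO the pseudogenes Rhox7-ps2 and Rhox2-ps followed at 33.4 and 31.9 CPM per kb, a difference within their spread, then Xlr4a at 17.2 and Xlr4c at 10.3. At P0 the order after Xlr3c was Xlr4e-ps at 23.9 and Xlr4a at 19.8. Magea13 and Magea9 had no annotated length here and are left out of this order.

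Magea genes rose with both drugs from no or almost no reads. Of 7 with 10 reads, 5 could be tested, and 5 of 5 were called higher with azacytidine and 5 of 5 with decitabine (edgeR quasi-likelihood test, Benjamini-Hochberg adjusted p under 0.05 over all genes). Members with no or almost no DMSO read passed the filter on low counts only through the treated libraries and could hardly be called lower. In every family such counts are a description. Over all 19123 genes tested, 13.6% were called higher and 6.70% lower with azacytidine, and 12.4% higher and 4.30% lower with decitabine.

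Magea13 had 0 and 0 reads in DMSO, 683 and 663 with azacytidine, and with decitabine 444 and 493. In CPM its treated levels were 44.6 and 39.5 with azacytidine and 22.6 and 26.9 with decitabine. Set against a floor of 3 reads over the DMSO group, that was at least 559-fold higher with azacytidine and at least 329-fold higher with decitabine (adjusted p = 3.31e-06 and 5.76e-06). Magea9 had 0 and 0 DMSO reads, 516 and 587 with azacytidine, and with decitabine 333 and 698. It was at least 458-fold and at least 362-fold higher (adjusted p = 3.73e-05 and 5.08e-05), and its decitabine libraries, at 17.0 and 38.1 CPM, lay on either side of the azacytidine ones at 33.7 and 35.0. No read of either gene was found in the 4 tumour libraries.

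The other Magea genes reached far lower levels. Magea5 had 0 and 0 DMSO reads, 25 and 37 with azacytidine and with decitabine 6 and 15, at least 25.7-fold and at least 7.38-fold higher (adjusted p = 0.00167 and 0.0115). Magea8 had 0 and 0, 21 and 40, and 7 and 21, at least 25.3-fold and at least 9.84-fold higher (adjusted p = 0.00257 and 0.0107). Both lie in the Magea cluster at chrX:154924012-155093666 (mm10), and 47.5% and 41.5% of their 50-base windows also occur in other members, so reads may be shared between copies. Magea14 had 0 and 1 DMSO reads, 17 and 27 with azacytidine and with decitabine 8 and 12. Without decitabine replicate 2 the decitabine calls of Magea5 (adjusted p = 0.0595), Magea8 (0.0544) and Magea14 (0.115) were lost. That of Magea14 was also lost without DMSO replicate 1 (0.112) and with DESeq2 (0.0596). The ratio of Magea14 was 54.8 with azacytidine (95% exact interval for counting error only, 9.34 to 2210) and 21.1 with decitabine (3.37 to 874). Too low to test were Magea2 with 11 reads and Magea9-ps with 14, and Magea1 and Magea4 had none. Summed over the family, the level was 0 and 0.0498 CPM in DMSO, 83.2 and 81.8 with azacytidine, and with decitabine 40.7 and 68.7.

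Mageb genes rose too, at lower summed levels than Magea. Of 11 with 10 reads, 5 could be tested, and 5 were called higher with azacytidine (3 with no DMSO read) and 3 with decitabine (1 with none). Mageb18 had 2 and 6 DMSO reads, 36 and 39 with azacytidine, and with decitabine 19 and 16. Its log2 fold change was 3.50 ± 0.591 (SE) with azacytidine (adjusted p = 0.00281) and 2.17 ± 0.606 with decitabine (adjusted p = 0.0354), and none of its 50-base windows occurs in another member. The decitabine call was lost without DMSO replicate 1 (adjusted p = 0.189), decitabine replicate 1 (0.115) or decitabine replicate 2 (0.109), and with DESeq2 (0.0707).

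Mageb11 had no DMSO read, 16 and 25 with azacytidine, and with decitabine 13 and 12, at least 17.0-fold and at least 8.78-fold higher (adjusted p = 0.00200 and 0.00616). The pseudogene Mageb7-ps had 0 and 3 DMSO reads, 38 and 27 with azacytidine, and with decitabine 27 and 25, ratios of 27.0 (interval 8.83 to 134) and 18.3 (5.91 to 91.4). Another pair of pseudogenes had no DMSO read. Mageb6-ps had 26 and 17 reads with azacytidine and 2 and 10 with decitabine (adjusted p = 0.00621 and 0.0524), and Mageb10-ps had 11 and 11 against 2 and 3 (adjusted p = 0.0115 and 0.132). These calls moved with the settings. Mageb6-ps passed with decitabine in DESeq2 (0.0413) and missed with azacytidine without azacytidine replicate 1 (0.0602). Mageb10-ps missed with azacytidine without either azacytidine library (0.105 and 0.0881). The other 6 with 10 reads were too low to test. Of these, Mageb4 (no DMSO read, 18 and 7, 3 and 6) had the most, and Mageb3, which lies on chromosome 2, had reads in all groups with overlapping levels. Mageb10-ps lies inside Mageb4 on the same strand, and 83.4% of its 50-base windows occur in Mageb4, so their reads may be shared. Summed, the family was at 0.452 and 0.648 CPM in DMSO, 11.5 and 8.82 with azacytidine, and with decitabine 4.23 and 4.97.

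**Figure D2:**
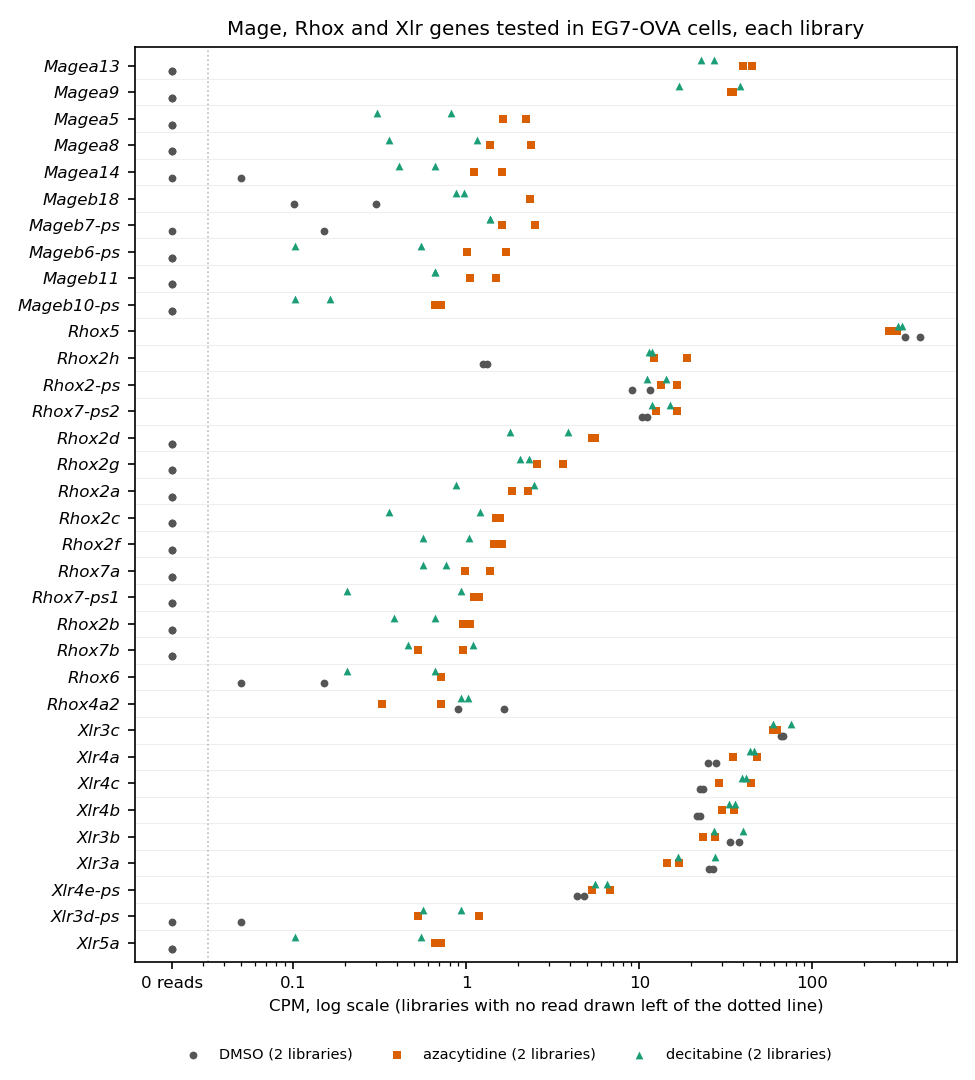
Level in CPM (log x axis) of the 34 tested members (y axis, grouped by family) in each DMSO, azacytidine and decitabine library, with libraries at 0 reads drawn left of the dotted line. Magea13 and Magea9 lie at 17.0 to 44.6 CPM with drug and at 0 in DMSO, while Rhox5 and the abundant Xlr3 and Xlr4 genes have reads in every library.

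Rhox genes rose in many copies, while Rhox5, the most abundant, was not called. The cluster spans chrX:37213804-38306028 in mm10, 1.09 Mb with all 42 Rhox symbols. Of 25 with 10 reads, 15 could be tested, and 10 were called higher with azacytidine and 10 with decitabine, with none lower. For each drug 9 of the 10 had no DMSO read and entered the test only through the treated libraries. Rhox2, a homeobox gene repeated along the cluster, gave most of them.

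The 7 copies Rhox2a to Rhox2g had no read in either DMSO library. Their summed level was 14.4 and 16.0 CPM with azacytidine and 6.42 and 11.8 with decitabine. Rhox2d had the most, with 85 and 89 azacytidine and 35 and 71 decitabine reads, at least 72.2-fold and at least 37.2-fold higher (adjusted p = 0.000207 and 0.000501). Rhox2g followed with 39 and 61 and with 40 and 42 reads, at least 41.5-fold and at least 28.8-fold higher (adjusted p = 0.000241 and 0.000443). Rhox2a had 28 and 38 reads with azacytidine and 17 and 45 with decitabine. Rhox2b, Rhox2c and Rhox2f had 16 to 27 with azacytidine and 7 to 22 with decitabine, and each passed both tests. With decitabine, Rhox2b was lost without decitabine replicate 1 (adjusted p = 0.0609) and Rhox2c without decitabine replicate 2 (0.0547). Rhox2e, with 7 and 12 and then 3 and 9 reads, was too low to test.

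Which copy gave these reads is uncertain. The share of a copy's 50-base windows found in another member was 44.7% for Rhox2d, 53.7% for Rhox2h, 54.8% for Rhox2g, 93.4% for Rhox2a and 100% for Rhox2e. Counted as 1 unit together with Rhox2h and Rhox2-ps, Rhox2 had a log2 fold change of 1.98 ± 0.214 with azacytidine (adjusted p = 0.000245) and 1.53 ± 0.212 with decitabine (adjusted p = 0.00114).

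Rhox2h differed from Rhox2a to Rhox2g in having reads without drug. It had 26 and 25 in DMSO, 288 and 203 with azacytidine, and with decitabine 232 and 209, or 1.31 and 1.25 CPM, 18.8 and 12.1, and 11.8 and 11.4. The rise was 12.0-fold with azacytidine (log2 3.59 ± 0.346, adjusted p = 0.000135) and 9.06-fold with decitabine (log2 3.18 ± 0.342, adjusted p = 0.000304). Per length its level went from 1.63 to 19.6 and 14.7 CPM per kb. Of its 50-base windows 53.7% occur in other members, so some of its reads may come from other copies. On one side, 0.2 kb away, lies Rhox3h, with no DMSO read, 2 and 4 reads with azacytidine and 1 and 3 with decitabine, too few to test. On the other side lie Rhox7-ps2 and Rhox2-ps, which were tested and not called, within 14.4 kb together with Rhox2h and with starts at −131.6 kb for Rhox2h and −121.4 kb for Rhox2-ps relative to that of Rhox5.

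Rhox2-ps had 228 and 182 reads in DMSO, 203 and 278 with azacytidine and with decitabine 217 and 260, log2 0.54 ± 0.275 (adjusted p = 0.202) and 0.30 (adjusted p = 0.522). Rhox7-ps2 had 220 and 208, 192 and 278, and 232 and 275, log2 0.44 ± 0.268 (adjusted p = 0.284) and 0.33 (adjusted p = 0.466). For both pseudogenes the test was missed with either drug. None of the windows of Rhox2-ps occurs in another member.

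Rhox5 had 8286 and 6918 reads in DMSO, 4731 and 4644 with azacytidine, and with decitabine 6425 and 5720. In CPM that was 417 and 345, 309 and 277, and 328 and 313. Both treated groups lay below both DMSO libraries, but the difference did not pass: log2 −0.38 ± 0.169 with azacytidine (adjusted p = 0.150) and −0.25 with decitabine (adjusted p = 0.366). Rhox5 carried most Rhox reads, so the summed level of the family, 442 and 366 CPM in DMSO, 375 and 345 with azacytidine and with decitabine 373 and 372, hid the rise of the other genes.

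**Figure D3:**
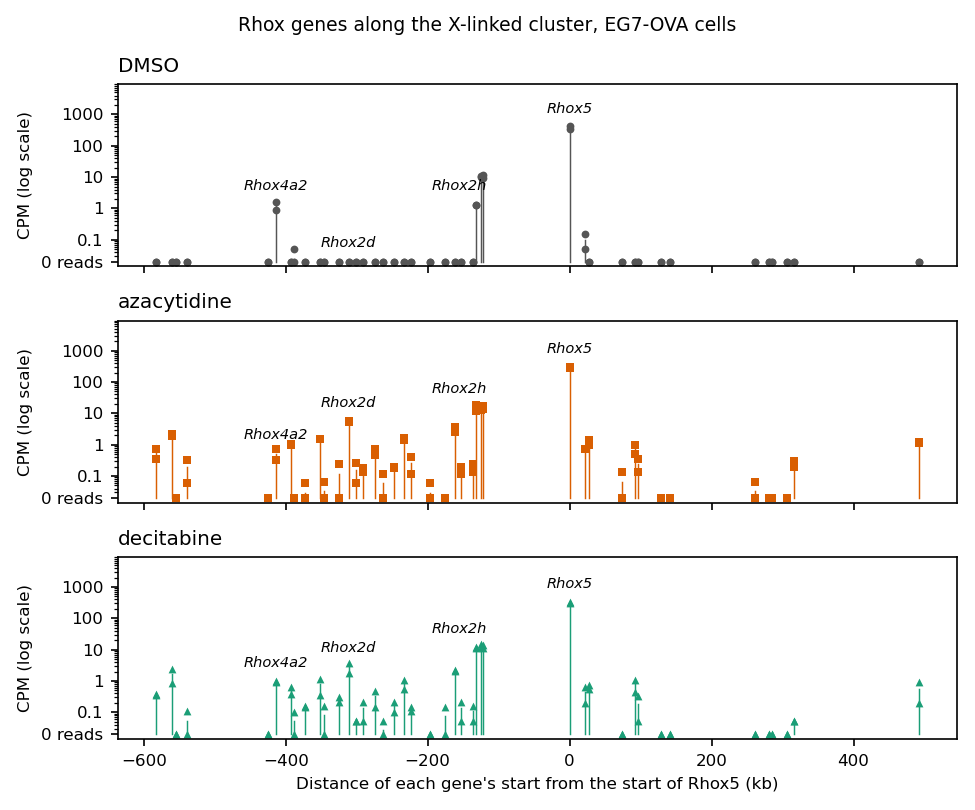
Level in CPM (log y axis) of each of the 42 Rhox genes against its distance from the Rhox5 start in kb (x axis), in 3 panels for DMSO, azacytidine and decitabine. Libraries without a read are drawn at the mark for 0 reads. In the DMSO panel 7 genes lie above that mark and in the treated panels many more, with Rhox5 highest in each at 277 to 417 CPM. Rhox11 and Rhox12 are among the genes that stay at 0 reads in every panel.

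Elsewhere in the cluster levels were low. Rhox7a had no DMSO read, 15 and 23 with azacytidine, and with decitabine 11 and 14, at least 15.8-fold and at least 8.78-fold higher (adjusted p = 0.00253 and 0.00691). Rhox7b and Rhox7-ps1, also without DMSO reads, passed both tests, at least 9.96-fold and 15.4-fold higher with azacytidine and at least 10.2-fold and 7.38-fold higher with decitabine. Their decitabine calls were lost without decitabine replicate 2 (adjusted p = 0.0827 for Rhox7b and 0.153 for Rhox7-ps1), that of Rhox7-ps1 also without DMSO replicate 1 (0.0676), and the azacytidine call of Rhox7b without azacytidine replicate 2 (0.0677). Rhox6, a homeobox gene of placenta and germ cells, had 3 and 1, 11 and 12, and 4 and 12 reads, log2 2.76 ± 0.909 (adjusted p = 0.0581) and 2.02 (adjusted p = 0.182). Rhox4a2 was not called, with 33 and 18 DMSO reads, 5 and 12 with azacytidine and with decitabine 20 and 17 (log2 −1.27 ± 0.588, adjusted p = 0.162, and −0.39, adjusted p = 0.698), and 98.2% of its windows are shared. None of the other 7 Rhox4 copies had more than 14 reads in the 6 libraries, and none of the 9 Rhox3 copies more than 13. Rhox3 counted as 1 unit had 0 and 1 DMSO reads, 13 and 9 with azacytidine and 10 and 10 with decitabine. It passed with both drugs, fitted log2 4.45 (adjusted p = 0.0149) and 4.07 (adjusted p = 0.0276), values that rest on 1 DMSO read. This unit entered the test only through the treated libraries and could hardly be called lower. Rhox4 as 1 unit did not pass. Rhox7 as 1 unit, which includes the more abundant Rhox7-ps2, did not pass either, log2 0.72 (adjusted p = 0.0868) and 0.53 (adjusted p = 0.222). Of the 50-base windows of Rhox7a, Rhox7b and Rhox7-ps1, 58.8%, 70.8% and 43.5% occur in other Rhox7 copies, so their calls are not separate measurements.

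In EG7 the Xlr genes split into abundant and near-silent members. Xlr3a, Xlr3b, Xlr3c, Xlr4a, Xlr4b and Xlr4c lie with Xlr5a, Xlr5b and Xlr5c within 219 kb (chrX:73074345-73292976, mm10) and were abundant in all groups. Of 9 Xlr members tested, 3 were called higher with azacytidine and 4 with decitabine, none lower, beside 13.6% and 12.4% called higher over all genes.

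Xlr4a had 27.9 and 24.8 CPM in DMSO, 35.0 and 47.8 with azacytidine, and with decitabine 45.9 and 43.6. That was 1.57-fold higher with azacytidine (log2 0.65 ± 0.202, adjusted p = 0.0465) and 1.70-fold with decitabine (log2 0.76 ± 0.202, adjusted p = 0.0283). Its azacytidine call was lost in edgeR with median-ratio size factors (adjusted p = 0.0516), with the replicate block (0.0692) and with only the 4 libraries compared (0.0657). Xlr4b (log2 0.58 and 0.64) and Xlr4c (log2 0.68 and 0.81) had adjusted p = 0.0430 and 0.0329 with decitabine and 0.0575 and 0.0577 with azacytidine. DESeq2 called both with azacytidine (0.0286 and 0.0344). Xlr4b missed with decitabine under median-ratio size factors (0.0530), without a filter (0.0501), with the replicate block (0.0628) and with only the 4 libraries compared (0.0656). These calls rested on every library. Leaving out any 1 of the 4 libraries compared ended the azacytidine call of Xlr4a (adjusted p 0.0626 to 0.359) and the decitabine calls of Xlr4a, Xlr4b and Xlr4c (adjusted p 0.0770 to 0.222 over the 3 genes). Counted as 1 unit, Xlr4 rose by log2 0.62 ± 0.181 (adjusted p = 0.0358) and 0.72 (adjusted p = 0.0219).

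No abundant Xlr3 copy was called with either drug. Xlr3a had 25.2 and 26.5 CPM in DMSO, 14.4 and 16.9 with azacytidine, and with decitabine 27.4 and 16.8. It was lower in both azacytidine libraries without passing (log2 −0.72 ± 0.262, adjusted p = 0.0793, edgeR), and DESeq2 gave an adjusted p of 0.0442. Xlr3b (log2 −0.49 ± 0.223, adjusted p = 0.157) and Xlr3c (log2 −0.13, adjusted p = 0.661) were not called either. The 2 decitabine libraries differed from each other for all 3 Xlr3 copies, the first being the higher.

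Xlr5a, Xlr5b and Xlr5c had no DMSO read. Xlr5a had 11 and 11 reads with azacytidine and 2 and 10 with decitabine (adjusted p = 0.0189 and 0.0604), at least 9.13-fold and 4.22-fold higher. Its azacytidine call was lost without DMSO replicate 1 (0.0623) or either azacytidine library (0.106 and 0.0888). Xlr5c, untested, had 8 and 19 reads and then 3 and 2. Of the 50-base windows of Xlr5a, Xlr5b and Xlr5c, 86.9%, 90.2% and 84.9% occur in other members, so reads may be shared. Xlr5 counted as 1 unit passed the edgeR test with both drugs (adjusted p = 0.0017 and 0.00923). With no DMSO read, that unit entered the test only through the treated libraries and could hardly be called lower. The pseudogene Xlr3d-ps had 0 and 1 DMSO reads, 8 and 20 with azacytidine, and with decitabine 11 and 17, ratios of 34.9 (interval 5.77 to 1430) and 29.5 (4.88 to 1210). Its calls (adjusted p = 0.0112 and 0.0167) were lost without DMSO replicate 1 (0.0553 and 0.0845), azacytidine replicate 2 (0.103) or decitabine replicate 2 (0.108).

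Of the 54 members with 10 reads in EG7, the 35 without a DMSO read could hardly lie below DMSO, so the 19 with one are given apart. For 13 of these 19 both azacytidine libraries lay above both DMSO libraries and for 5 below (Rhox5, Rhox4a2, Xlr3a, Xlr3b and Xlr3c). Both decitabine libraries lay above for 12 of the 19 and below for 1, Rhox5. Magea14, Mageb1, Mageb7-ps and Xlr3d-ps, with 1 to 3 DMSO reads in total, had no read in 1 of the DMSO libraries. These genes could not lie below both DMSO libraries, and all lay above with each drug, so these splits are partly fixed in advance. Over all 24924 entries with 10 reads, 33.2% lay above and 24.4% below with azacytidine, and 33.8% above and 22.1% below with decitabine. In edgeR's test 23 of 34 tested members were called higher with azacytidine and 22 with decitabine, and none lower, but 17 and 14 of the called members had no DMSO read. Of the 14 tested members with more than 3 DMSO reads, 3 were called higher with azacytidine (Mageb18, Rhox2h and Xlr4a) and 5 with decitabine (these and Xlr4b and Xlr4c). The shares of all 19123 tested genes called higher were 13.6% with azacytidine and 12.4% with decitabine. Over all tested members, leaving out each library in turn gave 19 to 25 calls with azacytidine and 11 to 19 with decitabine. The fewest, 11, came without decitabine replicate 2, and a fit of only the 4 libraries compared gave 13 with decitabine. The median log2 fold change of tested members was 6.05 with azacytidine, beside 0.03 over all genes, a median that rests on fitted values for genes at 0 in DMSO. Both comparisons use the same DMSO libraries.

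Set side by side at their unequal doses, the 2 drugs differed at no member past the threshold. Both azacytidine libraries lay above both decitabine libraries for 23 of 54 members, below for 2 (Rhox5 and Rhox4a2), and 29 overlapped, where 17.3% of all entries with 10 reads lay above and 17.7% below. The test called 0% of all 19123 genes and so no member in edgeR, with 1218 genes and 5 members at an unadjusted p under 0.05, and DESeq2 called 177 genes. The 5 members were Magea13, Magea5, Mageb18, Mageb10-ps and Mageb6-ps. For Magea13 the azacytidine minus decitabine difference was log2 0.76 (95% interval 0.26 to 1.26, adjusted p = 0.427). It was 1.34 for Mageb18 (0.22 to 2.46, adjusted p = 0.647) and 1.77 for Magea5 (0.36 to 3.18, adjusted p = 0.616). Intervals spanned 0 for Magea9 (−0.46 to 1.10), Rhox2h (−0.26 to 1.08), Rhox2d (−0.09 to 1.96) and Rhox5 (−0.50 to 0.25). Because the doses differ, these values compare the treatments given and not the compounds.

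In the EL4 tumours the members that differed between P3 and P0 were Xlr genes and a Rhox pseudogene, and no Magea gene had a read. Of 10 members tested, 6 were called higher at P3 and none lower, where 18.8% of 19993 genes were called higher and 19.9% lower. For 9 of the 13 members with 10 reads both P3 libraries lay above both P0 libraries and for none below, where 35.6% of all 24230 entries with 10 reads lay above and 36.3% below. Xlr4a had 608 and 801 reads at P0 and 2034 and 1375 at P3, or 28.8 and 31.9 CPM against 90.0 and 60.3. It was 2.48-fold higher (log2 1.31 ± 0.203, adjusted p = 0.0074). Xlr4c had 28.4 and 31.0 CPM against 82.3 and 49.7 (log2 1.15 ± 0.242, adjusted p = 0.0171).

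The other Xlr4 copies were higher as well. Xlr4b went from 25.9 and 24.0 CPM to 42.4 and 36.6 (log2 0.66 ± 0.123, adjusted p = 0.0121), and the pseudogene Xlr4e-ps from 15.4 and 15.6 to 35.1 and 25.5 (log2 0.96 ± 0.182, adjusted p = 0.0127). Xlr4d-ps, too low to test, had 1 and 1 reads at P0 and 25 and 7 at P3, a ratio of 16.3 (interval 4.16 to 140). Counted as 1 unit, Xlr4 was at 98.5 and 103 CPM at P0 and 251 and 172 at P3 (log2 1.07 ± 0.184, adjusted p = 0.0097). The first P3 library was the higher for each of these Xlr4 genes, and 48.8% to 73.8% of the windows of Xlr4a, Xlr4b, Xlr4c and Xlr4e-ps are shared, so their calls are not separate measurements.

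Xlr3, in the same interval as Xlr4, was close to its P0 level as a unit, at 120 and 118 CPM against 127 and 116 (log2 0.03, adjusted p = 0.787). Within it Xlr3a was higher, at 11.1 and 11.2 CPM against 15.2 and 16.8 (log2 0.52 ± 0.152, adjusted p = 0.0444), and Xlr3b (log2 0.17, adjusted p = 0.347) and Xlr3c (log2 −0.08, adjusted p = 0.540) were not called. Whether the Xlr4 and Xlr3 changes differ was not tested. Rhox7-ps2 had 23 and 33 reads at P0 and 72 and 61 at P3 (log2 1.28 ± 0.305, adjusted p = 0.0247). Rhox5 was not called, with 175 and 151 CPM at P0 and 151 and 157 at P3 (log2 −0.08 ± 0.105, adjusted p = 0.560). Mageb7-ps, the only Mageb gene with 10 reads, had 11 and 10 reads at P0 and 2 and 55 at P3, so its P3 libraries lay on either side (log2 1.45 ± 1.19 SE, adjusted p = 0.368). Without P3 replicate 1 it was called higher (log2 2.41, adjusted p = 0.000119), and without P3 replicate 2 its log2 value was −2.31.

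With either P0 library left out, edgeR called no gene of the whole table, 5571 and 5768 genes having an unadjusted p under 0.05, and so none of the 6, while their values were close to those with all 4 libraries. Xlr4a then had log2 1.22 and 1.38, and Xlr4e-ps 0.94 and 0.97. DESeq2 then called 2 members, Xlr4a and Xlr4c, in each case. With all 4 libraries DESeq2 did not call Xlr3a (adjusted p = 0.0645) or Rhox7-ps2 (adjusted p = 0.0506). Between the same groups the summed T cell markers went from 2220 and 1980 CPM to 1570 and 1750 (2 of 7 tested fell), and the neutrophil markers from 3.46 and 3.14 to 14.4 and 56.2 (4 of 5 tested rose). The part of these and of the host-cell markers above in the Xlr differences was not tested.

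**Figure D4:**
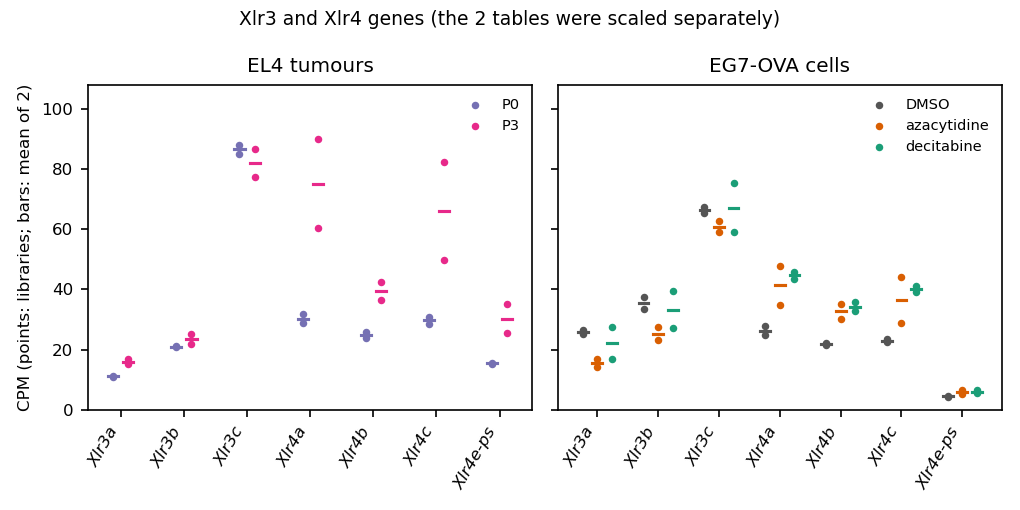
Level in CPM (y axis) of Xlr3 and Xlr4 genes in the EL4 tumours (P0, P3) and in EG7 (DMSO, azacytidine, decitabine), with points for libraries and bars for the mean of 2. Xlr4a rises from 28.8 and 31.9 to 90.0 and 60.3 CPM between P0 and P3, and Xlr3c is among the highest in every group.

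Related genes put the members in context. Of other X-linked germline genes, 10 were tested in EG7. Of these, 8 were called higher with azacytidine and 6 with decitabine, none lower, beside 13.6% and 12.4% called higher over all genes. Among them was Taf7l, a testis-specific TFIID subunit, at 0.0251 CPM on average in DMSO, 28.4 with azacytidine and 6.04 with decitabine. Of 23 autosomal germline genes known to be silenced by methylation, 21 and 16 were called higher. Dazl, a germ cell RNA-binding protein, had log2 8.31 ± 0.441 (adjusted p = 4.4e-06) and 6.87 ± 0.440 (adjusted p = 1.89e-05). Of 4 type II MAGE genes tested, which are broadly expressed, Maged2 (log2 2.15 and 2.33) and Maged1 (log2 0.88 and 0.76) rose with both drugs, whereas in the tumours both fell (log2 −1.08 and −1.22). Median log2 fold changes with azacytidine were 7.79, 6.77 and 0.50 in these lists, beside 0.03 over all genes. Genes with almost no DMSO read, such as Taf7l, passed the filter only through the treated libraries and could hardly be called lower. The counts and medians of the germline lists are therefore a description.

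Of 16 genes that write or read silencing at germline genes, most were not called. Dnmt3a, a de novo DNA methyltransferase, rose with both drugs (log2 0.94 ± 0.188, adjusted p = 0.00645, and 0.80, adjusted p = 0.0162). Dnmt1, the maintenance methyltransferase, fell by 0.77 on the log2 scale with decitabine (adjusted p = 0.00988) and had log2 −0.33 with azacytidine (adjusted p = 0.177). With azacytidine 2 of the 16 rose, 1 fell and 13 did not pass. With decitabine 1 rose, 3 fell and 12 did not pass. Over all genes tested, 13.6% were called higher and 6.70% lower with azacytidine, and 12.4% and 4.30% with decitabine.

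Markers of some other cell types moved with the drugs as well. Testicular germ cell markers, 8 of 10 with a read, summed to 1.96 and 1.99 CPM in DMSO, 46.9 and 47.3 with azacytidine, and with decitabine 16.2 and 21.7, with Tnp1 and Acr at 0 in all. Of the 3 germ cell markers tested, 2 were called higher with azacytidine and 1 with decitabine. Dazl, Ddx4 and Sycp3 are in this list and in the autosomal germline list above. Macrophage markers, 7 of 10 with a read, summed to 7.39 and 9.92 CPM, 25.9 and 22.2, and 45.9 and 38.5, with C1qa, C1qb and C1qc at 0. Fibroblast markers, 4 of 6 with a read, summed to 2.21 and 3.44, 65.7 and 26.1, and 61.3 and 49.4, with Col3a1 and Dcn at 0. Other lists moved less. None of 6 B cell markers tested was called with either drug. Of 3 dendritic cell markers tested, 1 fell with each drug and 1 rose with decitabine. Of 4 Sertoli and Leydig cell markers tested, 1 rose with each drug, as did 1 of 2 endothelial markers. No neutrophil marker could be tested. Beside these counts, 13.6% of all genes tested were called higher and 6.70% lower with azacytidine, and 12.4% and 4.30% with decitabine. The part of all these markers in the members' rise was not tested.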

How the data were processed

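RNA was sequenced in 14 samples, and the 10 mouse libraries were used. The table of a human-named cell line was not used here. The authors deposited whole-number counts per gene for the EL4 tumours and, for EG7, a table of estimated counts in which 145 values in 62 entries were not whole (0 in members), and these were rounded. Per the submitters' processing notes, fastp, Trim Galore, STAR and featureCounts were used with mm10 among the builds. Neither their roles nor the handling of reads that map to several copies is stated there, so near-identical copies may share reads. The EG7 DMSO titles number the libraries 2 and 3, and they are called replicates 1 and 2 here. No value column went unmapped.

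Each table was filtered (filterByExpr), scaled by TMM and fitted with all its groups by edgeR 4.0.16 (quasi-likelihood, Benjamini-Hochberg adjustment over all genes, threshold 0.05). Libraries of a group varied by a coefficient of 0.188 (EL4) and 0.244 (EG7). CPM use the scaled library sizes. Of the members with 10 reads, 20 in EG7 and 3 in EL4 were too low for the test. Folds against a group at 0 reads use a floor of 3 reads over the group, and ratios against 1 to 3 reads have exact 95% intervals. These exact intervals and the floors cover counting error only. The SE of a fitted log2 value was derived from the test, as its absolute value over the square root of the F statistic. Intervals of fitted log2 differences use that SE. On simulated data the test recovered only part of the known changes, more of the larger ones, and its share of false calls was above the threshold, more so in EL4. Positions, lengths and shared 50-base windows are from GENCODE vM21 (81 of 88 members matched by symbol), and upstream sequences from RefSeq (GRCm38.p6).

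The members and gene lists were chosen with earlier results of these data known. Named members are those called in any comparison plus the most abundant of each family, and others are named to account for all. The fits were repeated with DESeq2 1.42.0, with median-ratio size factors, without a filter, with a filter at 1 CPM, with a replicate block, on summed copies, on the 4 libraries of a comparison alone and without each library in turn. Added after seeing the data were a crossed block and DESeq2 fits that lack a P0 library. Same-numbered libraries did not deviate together in every pair of groups, so the numbers were not taken as pairs.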

Additional observations from a re-analysis of the deposited data

How the results depend on the processing

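Counts of members called moved with the settings, their direction mostly did not. The single-member values cover only members tested under an alternative, so calls lost to a filter are not counted. For azacytidine against decitabine they cover only the 5 members at an unadjusted p under 0.05, Magea9 and Rhox2h. Of 897 single-member values under alternatives, 790 kept direction and side of the threshold, 74 dropped below it, 22 rose past it and 11 changed sign.

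Members called higher at P3 numbered 6, but 4 with DESeq2, 4 with the replicate block, 2 with copies summed and 0 to 8 without each library in turn (2 and 2 with DESeq2 when either P0 library was left out). With azacytidine 23 were called higher, 14 with copies summed and 19 to 25 without each library. Lower calls with azacytidine were 0, and 1 (Xlr3a) with DESeq2, without a filter and with only the 4 libraries compared. With decitabine 22 were called higher, 12 with copies summed, 13 with only the 4 libraries and 11 to 19 without each library. Summed copies are fewer units, which lowers the count by construction; the cause of the other shifts was not tested.

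The replicate block gave 22 members higher with azacytidine and 21 with decitabine. Same-numbered libraries share only a number: their deviations correlated at −0.04 for P0 and P3, 0.27 for azacytidine and decitabine, −0.26 for azacytidine and DMSO and −0.19 for decitabine and DMSO. The crossed pairing, chosen after seeing the data, gave 25 and 24.

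Sign changes, and the ranges without each library, were these log2 values. Rhox5, P3 against P0, was 0.015 without P0 replicate 1 and 0.003 with DESeq2 without it. Mageb7-ps was −2.305 to 2.406 at P3. With decitabine, Xlr3c was −0.018 with median-ratio size factors, −0.018 with DESeq2 and −0.212 to 0.164 without each library. Rhox4a2 ran from −0.807 to 0.109, Xlr3a from −0.659 to 0.066 and Xlr3b from −0.43 to 0.135. Magea9, azacytidine against decitabine, ran from −0.142 to 1.002. With few reads a member, 2 libraries a group limit what could be called.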
